A study of Homo sapiens with 14 samples.

Results

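Lists of STAT5 and BCL6 intervals from chromatin immunoprecipitation with sequencing (ChIP-seq) were read for the numbered zinc finger genes. The cells were DLD-1, a human colorectal adenocarcinoma line in long use. Members were the distinct intervals whose listed gene symbol is ZNF followed by a number and at most a single letter. They came to 1571 of the 152412 distinct intervals, at 459 ZNF symbols on 24 chromosomes. The control BCL6 list held 696 of them, the control STAT5 list 724, the activator STAT5 list 132 and the inhibitor BCL6 list 19. Further, 34 of the activator STAT5 intervals lay on a control BCL6 peak and 3 of the inhibitor BCL6 intervals on a control STAT5 peak, as the authors' shared lists give them.

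The study asked which genes STAT5 and BCL6 occupy when signalling through the GTPase RAC1 and its kinase PAK1 is raised or blocked. Control cells carried the empty vector. Activator cells carried pEGFP-C1199Tiam1, which encodes a fragment of TIAM1, an exchange factor that loads RAC1 with GTP, and were given vehicle. Inhibitor cells carried the same plasmid and were given 20 microM EHT 1864, a RAC inhibitor, over 16 h. In all groups chromatin was collected 20 h after the transfection, and the labels do not give the share of cells that took up plasmid. The values came from control BCL6 libraries 2 and 8, control STAT5 libraries 1 and 7, activator STAT5 libraries 3 and 9, and inhibitor BCL6 libraries 6, 12 and 14. The other 5 of the 14 libraries, 3 activator BCL6 and 2 inhibitor STAT5, were not analysed here, so the treated lists differ in antibody as well as in treatment and were not compared with each other.

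The control lists hold intervals with a value in 1 library or in both, and the treated lists only intervals with a value in every library. No treated interval shares a base with a control interval of the same antibody. A treated share thus counts only places outside that control list, and is not the whole occupancy in treated cells. Shares are therefore compared between gene groups within a list. The depth of the libraries is unknown, and no input or no-antibody values are in the lists. The labels do not state that libraries of a group came from separate cultures.

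ZNF genes encode DNA-binding proteins built from repeated C2H2 zinc fingers and form the largest family of human transcription factors. Many of them carry a KRAB domain, which recruits the scaffold TRIM28 and through it the histone methyltransferase SETDB1, HP1 proteins and DNA methylation, and many bind transposable elements. The family grew by tandem duplication, and chromosome 19 holds its largest clusters. STAT5 recognises TTCNNNGAA, and BCL6, itself a zinc finger repressor with a BTB domain, recognises a sequence that overlaps it.

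By the gene order of the reference annotation, 12 runs of at least 5 protein-coding ZNF genes, with at most 2 other protein-coding genes between neighbours, were found on chromosome 19. They are called clusters here and named by their first and last gene. They hold 221 genes. Another 25 ZNF genes of chromosome 19 lie outside them, and 263 lie on other chromosomes, 69 of these in 10 runs by the same rule.

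The ZNF283 to ZNF180 cluster is shown first because, of the 12 clusters, it has the highest share of promoters with TTCNNNGAA. RefSeq promoters of GRCh38.p14, from 250 bases before to 50 after each start, were searched for TTCNNNGAA, which reads the same on either strand. Of the 19 promoters listed for 16 of its 20 genes, 16 held the motif (84.2%, exact 95% interval 60.4 to 96.6), against 7.66% of all 35116 promoters. Promoters of duplicated genes are not independent units, so the interval covers counting error only. The single form TTCTGGGAA, read on either strand and contained in the first motif, was in 14 of the 19 (73.7%) and in 1.03% of all promoters. It was in 3.82% of promoters at ZNF genes on other chromosomes (11 of 288) and in 3.64% in the other clusters (8 of 220). TTCTGGGAA together with GTAGTC, on either strand and anywhere in the window, was in 12 of the 19 and in 0.202% of all. Only TTCNNNGAA was set beforehand. TTCTGGGAA and GTAGTC recur in this cluster's own promoters, so their high shares there are description and no test. GTAGTC is not part of TTCNNNGAA, and whether STAT5 or BCL6 binds these stretches was not tested. ZNF112 has 2 promoters with TTCTGGGAA whose windows overlap, and both are counted. The stretches below lie upstream of the start, run 5′ to 3′ on the gene's strand and have the motif in capitals.
ZNF222: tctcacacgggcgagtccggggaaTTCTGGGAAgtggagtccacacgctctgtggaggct
ZNF284: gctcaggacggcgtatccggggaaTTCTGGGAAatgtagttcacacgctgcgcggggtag
ZNF225: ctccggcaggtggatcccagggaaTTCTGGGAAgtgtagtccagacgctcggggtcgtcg
ZNF226: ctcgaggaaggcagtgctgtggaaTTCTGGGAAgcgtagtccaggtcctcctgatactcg
ZNF227: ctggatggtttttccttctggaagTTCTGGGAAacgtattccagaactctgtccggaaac
ZNF235: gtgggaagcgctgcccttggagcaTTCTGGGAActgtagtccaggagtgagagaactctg
ZNF229: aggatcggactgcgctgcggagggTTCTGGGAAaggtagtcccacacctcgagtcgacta
ZNF180: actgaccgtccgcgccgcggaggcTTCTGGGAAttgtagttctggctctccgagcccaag
On GRCh38.p14 the ZNF222 stretch is chr19:44025255-44025314 on the plus strand, the ZNF226 stretch chr19:44165021-44165080 on the plus strand and the ZNF180 stretch chr19:44500542-44500601 on the minus strand. ZNF225 has 4 matches to TTCNNNGAA in its window, and ZNF284, ZNF227 and ZNF235 have 2 each.

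**Figure D1:**
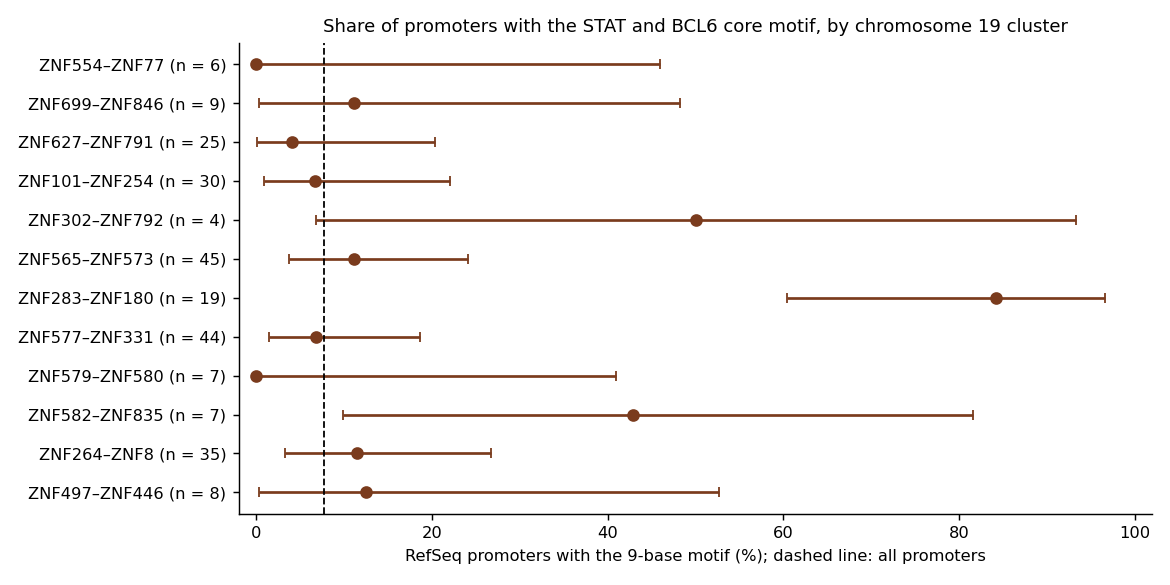
Share of RefSeq promoters that hold TTCNNNGAA (x axis, percent) in each of the 12 chromosome 19 clusters (y axis, n is promoters), with exact 95% intervals; the dashed line is the share among all promoters, 7.66%. The ZNF283 to ZNF180 cluster stands at 84.2%, and the clusters with 25 or more promoters stand between 4.00% and 11.4%.

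Over all clusters 38 of 239 promoters held the motif (15.9%, 11.5 to 21.2), and 22 of 220 did without the ZNF283 to ZNF180 cluster (10.0%, 6.37 to 14.7). At ZNF genes on other chromosomes the share was 7.99% (23 of 288 promoters). For the 13 genes of the ZNF283 to ZNF180 cluster with a TTCTGGGAA promoter, intervals were counted by the listed description where the symbol is missing (ZNF224 and ZNF229) or names another gene (ZNF234 and ZNF283). Of the 13, 9 had a control BCL6 interval, 10 a control STAT5 interval, 3 an activator STAT5 interval and 0 an inhibitor BCL6 interval, against 73.9%, 74.9%, 26.1% and 3.3% of all protein-coding genes. ZNF225 and ZNF283 had no interval in the 4 separate lists. Of the 41 intervals at those 13 genes 7 had their midpoint within 500 bp of the listed start (17.1%), and over all ZNF genes the shares were 22.2% in the control BCL6 list and 23.2% in the control STAT5 list. The lists are on GRCh37, so the motifs could not be placed on the intervals. Among all protein-coding ZNF genes, promoters with an activator STAT5 interval at the gene held TTCNNNGAA in 13.4% (18 of 134, 8.16 to 20.4), and those without in 10.9% (46 of 422, 8.09 to 14.3).

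ZNF genes in the chromosome 19 clusters had an interval less often than ZNF genes on other chromosomes in the control and activator lists. In the control BCL6 list 62.0% of the cluster genes had an interval (137 of 221, exact 95% interval 55.2 to 68.4), and 74.1% of ZNF genes elsewhere (195 of 263, 68.4 to 79.3), beside 73.9% of all protein-coding genes. The difference was -12.2 percentage points (95% Newcombe interval -20.3 to -3.83). The 137 genes include ZNF737, whose interval is listed on another chromosome than the reference gives, and without it the difference was -12.6 points (-20.8 to -4.27). In the control STAT5 list the shares were 66.1% (146 of 221) and 76.0% (200 of 263), beside 74.9% of all, a difference of -9.98 points (-18.0 to -1.89). Without the ZNF101 to ZNF254 cluster this difference was -3.76 points (-12.1 to 4.35). Against other protein-coding genes of chromosome 19 the clusters differed by -8.80 points (-15.8 to -2.11) for control BCL6. For control STAT5 that difference was -6.30 points, with an interval that includes 0 (-13.2 to 0.16). Those other genes of chromosome 19 were themselves lower than other protein-coding genes elsewhere. They differed by -3.41 points (-6.11 to -0.83) for control BCL6 and -2.78 (-5.45 to -0.25) for control STAT5. Neighbouring genes can share an interval, so genes are not independent units and no p is given.

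In the activator STAT5 list 14.0% of the cluster genes had an interval (31 of 221, 9.73 to 19.3), 26.6% of ZNF genes elsewhere (70 of 263, 21.4 to 32.4) and 26.1% of all protein-coding genes. The difference between clusters and elsewhere was -12.6 points (-19.5 to -5.39). ZNF genes elsewhere that lie in runs were closer to the clusters, with 12 of 69 (17.4%), and those outside runs were at 58 of 194 (29.9%). Against the runs elsewhere alone, the clusters differed by -3.36 points (-14.7 to 5.48), and against the genes outside runs by -15.9 (-23.7 to -7.93). Against other protein-coding genes of chromosome 19, of which 20.1% had an interval, the clusters differed by -6.06 points (-10.7 to -0.43). Those other genes of chromosome 19 differed from other protein-coding genes elsewhere by -6.50 points (-8.76 to -4.06).

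The 25 ZNF genes of chromosome 19 outside clusters were at the other end. Of them, 21 had a control BCL6 interval (84.0%, 63.9 to 95.5), beside 73.9% of all protein-coding genes. A control STAT5 interval was listed for 22 (88.0%, 68.8 to 97.5), beside 74.9% of all. Both of these ranges include the share of all genes. An activator STAT5 interval was listed for 11 of the 25 (44.0%, 24.4 to 65.1), beside 26.1% of all, and this range also includes the share of all genes. The activator STAT5 share of the 25 exceeded that of the clusters by 30.0 points (11.9 to 49.3). The 11 genes were ZNF414, ZNF558, ZNF653, ZNF333, ZNF546, ZNF780B, ZNF574, ZNF296, ZNF541, ZNF473 and ZNF628, and their intervals had values of 2 or 3 in library 3 and 2 to 4 in library 9.

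In the inhibitor BCL6 list 3 of 221 cluster genes had an interval (1.36%) and 11 of 263 elsewhere (4.18%), beside 3.3% of all protein-coding genes. The difference of -2.83 points had an interval of -6.10 to 0.32. Of the other protein-coding genes of chromosome 19, 1.66% had an interval. The cluster genes were ZNF223, ZNF615 and ZNF765.

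**Figure D2:**
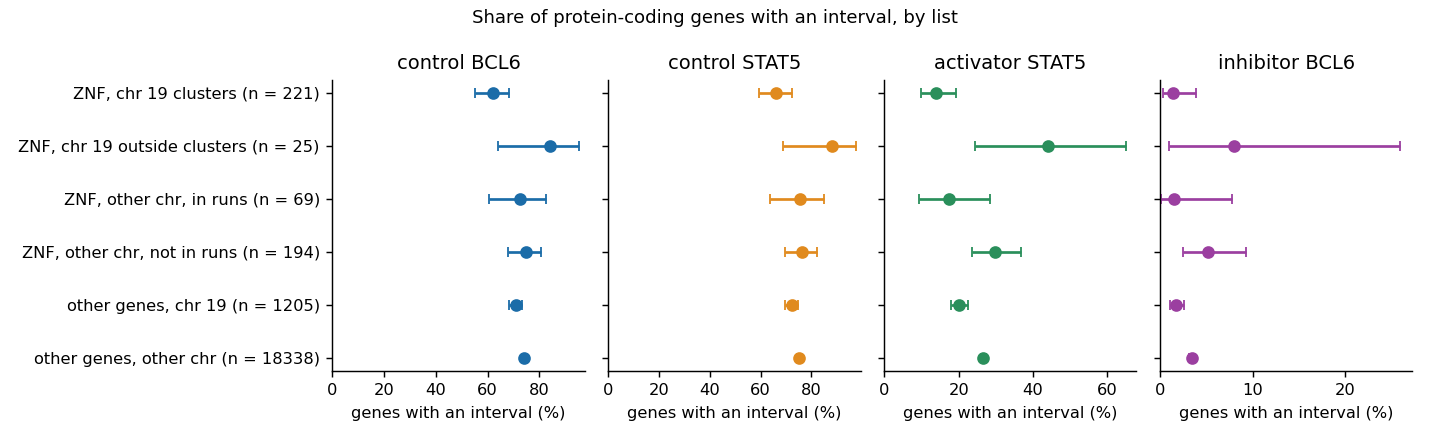
Share of protein-coding genes with an interval (x axis, percent) in each of the 4 separate lists, for 4 groups of ZNF genes and 2 groups of other genes (y axis); points are shares and bars exact 95% intervals. In the activator STAT5 panel the clusters stand at 14.0%, ZNF genes elsewhere in runs at 17.4% and those outside runs at 29.9%.

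The same order held in every control library taken alone. In control BCL6 library 2, 39.4% of cluster genes and 49.8% of ZNF genes elsewhere had a value, and in library 8, 43.0% and 59.7%. In control STAT5 library 1 the shares were 38.9% and 49.0%, and in library 7, 50.2% and 62.7%. The cluster share was lower in 4 of 4 libraries, by -12.4 ± 3.03 points (mean ± SD, n = 4 libraries of 2 antibodies). An exact two-sided sign-flip test over the libraries, added after the values were seen, gave p = 0.125, the smallest that 4 libraries allow.

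ZNF genes on other chromosomes had shares close to those of the other protein-coding genes there. The control BCL6 shares differed by -0.05 points (-5.70 to 4.91), the control STAT5 shares by 0.90 (-4.65 to 5.70) and the activator STAT5 shares by 0.03 (-4.99 to 5.72). No interval in any separate list was found for 79 of the 509 protein-coding ZNF genes, 44 of them in clusters and 34 on other chromosomes. That is 15.5%, beside 14.3% of all protein-coding genes (2862).

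The clusters differed among themselves. The ZNF101 to ZNF254 cluster, whose listed genes span chr19:19779606-24312643 on GRCh37, was low in 3 lists: 18 of its 37 genes had a control BCL6 interval (48.6%, ZNF737 with its interval outside that span included), 13 a control STAT5 interval (35.1%) and 2 an activator STAT5 interval (5.41%). The 2 were ZNF254, with 2 and 3 in libraries 3 and 9, and ZNF429, with 2 and 2. The ZNF577 to ZNF331 cluster at chr19:52359056-54083523 had control shares near those of all clusters, 23 and 27 of 38 genes, and a single activator STAT5 gene, ZNF766, with 3 and 2. It also held 2 of the 3 cluster genes of the inhibitor BCL6 list, ZNF615 and ZNF765.

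The ZNF627 to ZNF791 cluster at chr19:11708236-12750912 stood higher than the clusters together, and near the shares of all protein-coding genes. Of its 24 genes, 17 had a control BCL6 interval (70.8%, against 73.9% of all) and 19 a control STAT5 interval (79.2%, against 74.9%). An activator STAT5 interval was listed for 7 (29.2%, against 26.1%). Its gene with the highest treated values was ZNF20, with 5 in library 3 and 4 in library 9. That interval is 3 bp wide and touches a control STAT5 peak. The ZNF699 to ZNF846 cluster had 3 of 10 activator STAT5 genes, ZNF426, ZNF560 and ZNF562, and the ZNF264 to ZNF8 cluster 6 of 36, led by ZNF17 with 4 and 3. The ZNF582 to ZNF835 cluster of 7 genes had 1 control BCL6 gene, 4 control STAT5 genes and no treated interval. The ZNF565 to ZNF573 cluster had 4 of 26 activator STAT5 genes, led by ZNF146 with 4 and 2, and the ZNF283 to ZNF180 cluster had 3 of 20 by listed symbol, ZNF222, ZNF227 and ZNF233. Each of the 4 further clusters, of 5 to 7 genes, had 1 or 2 activator STAT5 genes. The genes with the highest treated values there were ZNF77, ZNF181, ZNF784 and ZNF584, the last of which is described as zinc finger protein 324B.

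**Figure D3:**
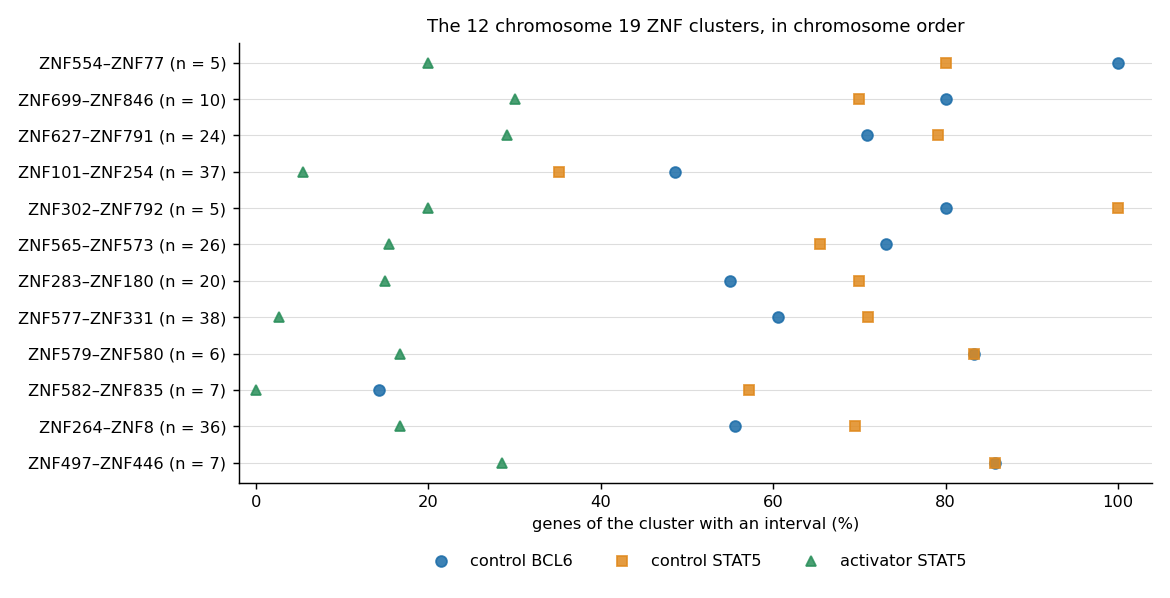
Share of genes with an interval (x axis, percent) in each chromosome 19 cluster (y axis, n is genes) for the control BCL6, control STAT5 and activator STAT5 lists. The ZNF101 to ZNF254 cluster stands lowest in the control STAT5 list at 35.1%, and the ZNF577 to ZNF331 cluster has 2.63% of its genes in the activator STAT5 list against 71.1% in the control STAT5 list.

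Values at ZNF genes were low in every library. In the control BCL6 list the nonzero values ran from 2 to 7 with a median of 2, and 72.9% were 2 in library 2 and 70.3% in library 8. In the control STAT5 list they ran from 2 to 9, also with a median of 2. Activator STAT5 values ran from 2 to 6 in library 3 and from 2 to 13 in library 9. At 2, the lowest value listed, were 71.0% of the cluster intervals in library 3 and 71.0% in library 9, against 53.7% and 47.6% of the intervals at ZNF genes elsewhere and 64.9% and 53.4% of the whole list. The highest cluster value was 5 in library 3 and 4 in library 9. Widths were alike, with medians of 154 and 153.5 bp. Over all ZNF genes, 18 of the 132 activator STAT5 intervals and 5 of the 19 inhibitor BCL6 intervals were under 50 bp wide.

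The first-ranked interval of each control list, by the lower of its 2 library values, was at a cluster gene. ZNF699 had 5 and 5 in the control BCL6 libraries 2 and 8, on a 765 bp interval at chr19:9417818-9418582, upstream of the start. ZNF223 had 7 and 3, on the widest control BCL6 interval of the family, 974 bp at chr19:44554845-44555818. ZNF416 had 3 and 4 in the control BCL6 list, and 6 and 4 in the control STAT5 libraries 1 and 7 on an 885 bp interval that spans its start, chr19:58089774-58090658. ZNF627 had 9 and 3 in the control STAT5 list. Such intervals were few. A value in both libraries was listed for 58 of 696 control BCL6 intervals (8.33%, against 9.19% of the list) and 57 of 724 control STAT5 intervals (7.87%, against 9.34%). In the clusters the control STAT5 share was 4.40% (11 of 250) and elsewhere 8.25% (32 of 388), a difference of -3.85 points (-7.55 to 0.21). The remaining top control BCL6 genes were ZNF337, ZNF684, ZNF215, ZNF281, ZNF500, ZNF749 and ZNF174, with values of 3 to 5. ZNF281 is a regulator of pluripotency genes. The remaining top control STAT5 entries were ZNF408, ZNF444, ZNF777, ZNF804B, ZNF780B and ZNF326, and also ZNF812 and the pseudogene ZNF863P. Their values were 2 to 7 in library 1 and 2 to 9 in library 7. Neither ZNF812 nor ZNF863P is counted among the protein-coding ZNF genes here.

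Among activator STAT5 intervals, ZNF79 ranked first by the lower of its 2 values. It had 5 in library 3 and 12 in library 9, at chr9:130185823-130185973, -839 to -689 bp from the start. ZNF195 had 3 and 13, ZNF215 had 5 and 4, and ZNF597, an imprinted gene, had 4 and 4. The 2 libraries thus gave unlike values at ZNF79 and ZNF195 and like values at ZNF215 and ZNF597. ZNF251, ZNF395, ZNF214, ZNF24 and ZNF706 completed the top 10, with 3 to 5 in library 3 and 3 to 6 in library 9. Only ZNF20 among these 10 lies in a cluster. Intervals rarely crossed a gene start: ZNF251, from -186 to 46 bp, was the only case among 134 pairs of an activator STAT5 interval and a ZNF gene, and 2.80% of pairs at other protein-coding genes did.

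The inhibitor BCL6 intervals lay far upstream of the ZNF genes. All 19 midpoints were upstream of the start (exact 95% interval 82.4 to 100%), and at other protein-coding genes 77.5% were (541 of 698). The lists reach from 3000 bp upstream to 1000 bp downstream of a start. The median midpoint was -2330 bp against -1101 bp, and 11 of 19 lay more than 2000 bp upstream (57.9%, 33.5 to 79.7) against 26.1% at other genes (22.9 to 29.5). The activator STAT5 midpoints at ZNF genes did not show this, with a median of -870 bp and 24.6% beyond 2000 bp against 23.7% at other genes. The pattern was seen after the values were known and is a description of 19 pairs at 17 genes.

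ZNF410, the activator of the chromatin remodeller gene CHD4, had 4, 3 and 3 in inhibitor BCL6 libraries 6, 12 and 14, at chr14:74351028-74351197. ZNF195 had 2, 4 and 5 on its stronger interval, ZNF394 had 6, 2 and 3 on an interval of 34 bp, and ZNF765 had 2, 7 and 2. At ZNF410 the 3 libraries lay close together, while ZNF394 and ZNF765 each drew their sum mainly from a single library. ZNF638, which takes part in silencing of unintegrated retroviral DNA, had 2, 4 and 3. The other top 10 genes were ZNF620, on an interval of 29 bp, ZNF223, ZNF615, on an interval of 44 bp, ZNF628 and ZNF821.

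**Figure D4:**
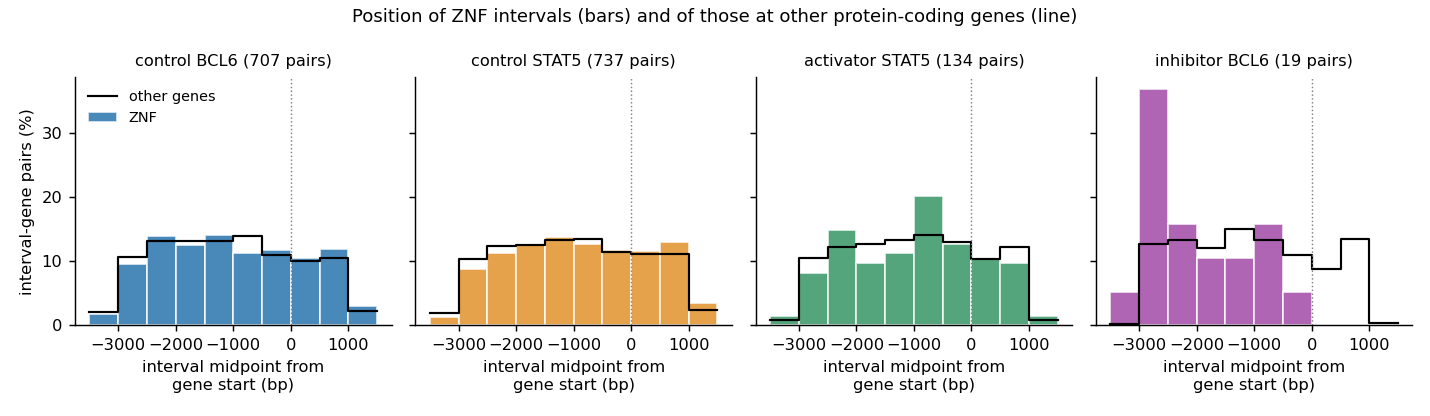
Distance of interval midpoints from the gene start (x axis, bp, negative is upstream) as a percent of interval-gene pairs (y axis) in the 4 separate lists; bars are ZNF genes and the black line other protein-coding genes. The control and activator STAT5 bars follow the line, and in the inhibitor BCL6 panel all 19 ZNF pairs lie upstream, 11 of them beyond 2000 bp.

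In the control STAT5 list more of the cluster intervals lay near the start. The median midpoint in the clusters was -768 bp, that of ZNF genes elsewhere -958 bp and that of other protein-coding genes -1023 bp. Within 500 bp of the start on either side were 29.2% of control STAT5 cluster pairs (74 of 253, 23.7 to 35.3) and 19.7% elsewhere (78 of 396, 15.9 to 24.0), a difference of 9.55 points (2.82 to 16.5), beside 22.5% at other genes. For control BCL6 the shares were 25.8% and 21.5%, beside 21.1% at other genes, and the difference of 4.28 points had an interval that includes 0 (-2.46 to 11.4).

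The authors' shared list sets activator STAT5 intervals on control BCL6 peaks, and 34 of 132 ZNF intervals (25.8%, 18.5 to 34.1) were on such a peak, against 25.6% of the whole list. By gene, 2.26% of cluster genes (5 of 221) and 8.37% of ZNF genes elsewhere (22 of 263) were in it, against 7.43% of all protein-coding genes, a difference of -6.10 points (-10.3 to -2.07). By interval, 5 of 31 in the clusters (16.1%) and 24 of 82 elsewhere (29.3%) were on a control BCL6 peak, a difference of -13.1 points whose interval includes 0 (-27.1 to 5.54). The cluster genes were ZNF709, ZNF566, ZNF222, ZNF233 and ZNF784. The symbol ZNF709 goes with a description of zinc finger protein 564 at that interval. ZNF784 had activator STAT5 values of 5 and 2 and control BCL6 values of 0 and 3.

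Control support at these sites came from a single library in nearly every case. That is usual for the list, since 9.19% of all control BCL6 intervals had a value in both libraries. Of the 34 intervals, 13 had a control BCL6 value in library 2 and 22 in library 8, and ZNF619 alone had both. Its activator STAT5 values were 4 and 2, and its control BCL6 values 2 and 3. ZNF395 had 3 and 6 beside 0 and 5, ZNF214 had 3 and 5 beside 0 and 5, and ZNF251 had 3 and 6 beside 3 and 0. ZNF503, a corepressor of development, had 2 and 6 beside 2 and 0, on an interval at chr10:77161763-77162085, -421 to -99 bp from the start. A single interval at chr6:27341054-27341308 was listed for both ZNF391 and the pseudogene ZNF204P, with 5 and 2 beside 0 and 2. Also in the shared list were ZNF148, a regulator that binds GC-rich promoters, ZNF385A, a partner of p53, ZNF34, ZNF691, ZNF35, ZNF74, ZNF213, ZNF26 and ZNF780B and the pseudogenes ZNF252P and ZNF767P. Over all 34 the activator STAT5 values ran from 2 to 5 and from 2 to 6.

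**Figure D5:**
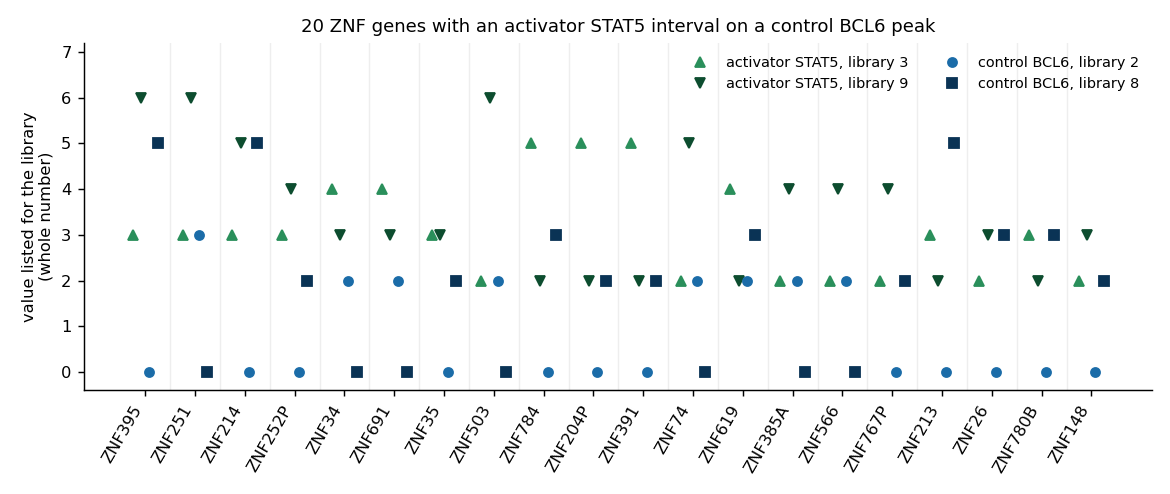
Value listed in each library (y axis, whole number) for the 20 ZNF genes with the highest lower activator STAT5 value among those whose interval lay on a control BCL6 peak (x axis). Both activator STAT5 libraries are at 2 or more at every gene, and of the control BCL6 libraries a single library is above 0 at every gene except ZNF619; ZNF204P and ZNF391 are the same interval.

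The inhibitor BCL6 intervals on a control STAT5 peak were at ZNF620, ZNF195 and ZNF223, 3 of the 19 ZNF intervals (15.8%, 3.38 to 39.6) against 23.7% of the list, and 3 of 509 protein-coding ZNF genes (0.59%) against 0.863% of all. ZNF223 had inhibitor BCL6 values of 2, 4 and 3 (libraries 6, 12 and 14) and control STAT5 values of 2 and 2 (libraries 1 and 7), at chr19:44554345-44554542. Its wide control BCL6 interval lies nearer to the gene, from -1320 to -347 bp against -1820 to -1623 bp. ZNF620 had 2, 6 and 2 beside 2 and 0, and ZNF195 had 3, 2 and 4 beside 0 and 2.

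Treated ZNF intervals never shared a base with a control interval of the same antibody, and neither did any of the 14047 activator STAT5 and 1652 inhibitor BCL6 intervals of the whole lists. The absence is thus a property of the lists as a whole and not particular to ZNF genes, and how it arose was not tested. Of the 132 activator STAT5 intervals 29 touched a control STAT5 interval end to end (22.0%, 15.2 to 30.0), against 18.9% of the list, and none of the 19 inhibitor BCL6 intervals touched a control BCL6 interval, against 14.3% of the list. In the clusters 7 of 31 touched and elsewhere 20 of 82. An activator STAT5 interval at such a place borders on a site that was listed in the control as well. Between the control lists, 53 of 250 cluster control STAT5 intervals lay on a control BCL6 interval (21.2%) and 119 of 388 elsewhere (30.7%), a difference of -9.47 points (-16.1 to -2.45). The share over the whole control STAT5 list was 30.2%.

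ZNF133, ZNF195, ZNF215, ZNF628 and ZNF821 had an interval in all 4 separate lists, and none of them is in a cluster. Such a gene must be among the 17 ZNF symbols of the inhibitor BCL6 list. That list held only 3 of the 221 cluster genes, so the absence of cluster genes here says little. The share of all genes with an interval in all 4 lists was not counted. At ZNF215, a gene with a SCAN and a KRAB domain, intervals of different lists lay on top of each other. An activator STAT5 interval with 2 and 2 at chr11:6946144-6946301 overlapped an inhibitor BCL6 interval with 3, 2 and 2 at chr11:6946121-6946228, and a further activator STAT5 interval with 5 and 4 touched a control STAT5 interval. At ZNF195 the activator STAT5 interval with 3 and 13, from -2677 to -2428 bp, bordered on a control STAT5 interval with 0 and 2, and the latter overlapped the inhibitor BCL6 interval with 3, 2 and 4. At ZNF133, a KRAB repressor, the treated intervals lay apart, the inhibitor BCL6 interval of 21 bp from -2981 to -2961 bp with 2, 2 and 3 and the activator STAT5 interval from 475 to 535 bp with 2 and 4. At ZNF628 they were also apart, with 2 and 2 from -299 to -229 bp and 2, 2 and 4 from -2744 to -2496 bp. At ZNF821 the activator STAT5 interval had 3 and 2, and the inhibitor BCL6 interval 3, 3 and 2.

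Of 28 partners of KRAB repression, 22 had a control BCL6 interval (78.6%, against 73.9% of all protein-coding genes) and 24 a control STAT5 interval (85.7%, against 74.9%). An activator STAT5 interval was listed for 11 (39.3%, against 26.1%) and an inhibitor BCL6 interval for 0 (against 3.3%). TRIM28, the scaffold that KRAB domains bind, had 2 and 2 in activator STAT5 libraries 3 and 9. CHD4 had 4 and 2, HDAC1 had 4 and 2, and the HUSH complex members TASOR and PPHLN1 had 2 and 4 and 2 and 8. Only CBX5, which encodes HP1 alpha, and the corepressor NCOR1 had their interval on a control BCL6 peak (7.14% of the 28, against 7.43% of all). Gene sets taken only by the start of their symbol had activator STAT5 intervals at 10 of 42 ZBTB genes, 6 of 21 ZSCAN genes, 0 of 7 ZKSCAN genes and 3 of 21 ZFP genes. The rule also took in ZBTB8OS, ZFP36, ZFP36L1 and ZFP36L2, so not every member is a related zinc finger gene. ZFP36L1 is among the 3 ZFP genes. In the inhibitor BCL6 list these sets held ZBTB21 and ZBTB34. ZBTB34 was also in the shared inhibitor list.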

How the data were processed

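The authors deposited 6 interval lists with whole-number values per library, read here as counts (0 or at least 2; the header names no quantity); a treated value can be that of a peak extending past its interval. The deposited width in bp and the signed distance, a score in bp from the interval's lower coordinate to the gene start, were taken from the lists per the file headers, and other positions were recomputed. Per the submitters' processing notes, GRCh37, CASAVA 1.8.2 and Bowtie 0.12.7 were used; for tool roles, peak caller and threshold: not given in the sources used here. All 9 library columns matched a sample.

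Symbols were matched to RefSeq (452 of 459 directly, 7 through older symbols; 429 are protein-coding ZNF genes). A symbol is missing at 14 features described as numbered zinc finger proteins, among them ZNF224, and 6 symbols name another number than the description (ZNF221, ZNF283, ZNF584, ZNF679, ZNF709, ZNF93). The symbol ZNF737 is listed on another chromosome than in RefSeq. An interval listed for several genes counts at each, and 26 were listed for 2 or more ZNF genes. Shares have exact Clopper-Pearson and differences Newcombe 95% intervals, which cover counting error only (scipy 1.17.1, statsmodels 0.14.6). Intervals count as overlapping from 1 shared bp. Members and lists were chosen with earlier results of these data known. Named genes were chosen by rank of their lowest library value (20 per shared list, 10 per separate list), by presence in all 4 lists, by spanning a start, and by cluster. Alternatives are given below. A count of zinc fingers per protein was not run. No genome of the lists' build was used here.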

Additional observations from a re-analysis of the deposited data

How the results depend on the processing

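The lower share of cluster genes kept its sign in all 16 alternatives for control BCL6 (-16.7 to -6.90 points), all 16 for control STAT5 (-14.2 to -3.76), all 14 for activator STAT5 (-15.9 to -3.36) and all 14 for inhibitor BCL6 (-3.80 to -0.09). The 95% interval lay below 0 in 15, 9, 13 and 1 of them. They covered pseudogenes, cluster rules, stricter values, distance, width, nearest gene start, missing or conflicting symbols, features on another chromosome and each control library left out. Compared with ZNF genes elsewhere in runs, chosen after the data were seen, the activator STAT5 difference was -3.36 points (-14.7 to 5.48); the cause was not tested. The share of activator STAT5 intervals on a control BCL6 peak stayed lower in clusters in 7 of 7 alternatives (-26.1 to -1.22), and its interval included 0 in each. For the inhibitor BCL6 list it ran from -16.7 to 20.8. With inhibitor values of at least 3 no cluster interval was left to compare. The share of control intervals with both libraries kept its sign in 2 of 3 alternatives for each antibody. Leaving out a treated library cannot change a treated list. No paired analysis was made, because the labels do not say which libraries of different groups belong together. Unknown depth and values mostly at 2 limit all shares: a gene without an interval may carry signal under the authors' threshold.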
